A study of Homo sapiens with 18 samples.

Results

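SUDHL6 and Farage, lines of human diffuse large B cell lymphoma, were compared for how their transcripts responded to the same BCL6 inhibitor. For each gene, the response of a line was the mean log2(CPM + 1) of its treated libraries minus that of its DMSO libraries, CPM being the reads of the gene scaled to a fixed library total. The quantity described throughout is the difference, the SUDHL6 response minus the Farage response. It is given for the 8670 shared genes, those with a mean of at least 5 CPM in the DMSO libraries of both lines, of 12357 genes tested and 23250 listed. The treated libraries came from cells given the inhibitor 79-6.1085 at 10 µM for 12 h, and the control libraries from cells given DMSO for 12 h. Each of the 4 groups has 3 RNA-seq libraries, so 12 of the 18 libraries of the study entered the comparison, and the other 6 are of a further line, SUDHL4. Each group rests on 1 cell line, and nothing in the labels says that its replicates were separate cultures, so p-values measure the spread between these libraries only. A line is 1 example of its disease, so a difference between SUDHL6 and Farage is a difference between these lines.

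BCL6 is a transcriptional repressor of germinal centre B cells. It recruits corepressors such as BCOR and NCOR1 through its BTB domain, and among the genes it represses are regulators of the DNA damage response, of cell cycle arrest, of plasma cell differentiation and of NF-kB and interferon signalling. The Polycomb complex PRC2 methylates histone H3 through its enzyme EZH2, and CBX8 and BCOR are found in complexes of the PRC1 type. The series concerns how EZH2 and BCL6 act together through a complex that holds CBX8 and BCOR.

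Both lines responded widely, and most shared genes moved in the same direction. In SUDHL6, 6238 shared genes were called (71.9%; limma, adjusted p under 0.05), of which 2430 rose (28.0%) and 3808 fell (43.9%). In Farage, 6356 were called (73.3%), with 2196 risen (25.3%) and 4160 fallen (48.0%). Of the 5103 shared genes called in both lines, 4858 (95.2%) had the same sign, 1705 risen and 3153 fallen. Across the 8670 genes the responses correlated with r = 0.82, which describes genes of the same libraries and not independent replicates. The difference was called for 2465 shared genes (28.4%), of which 1513 (17.5%) were higher in SUDHL6 and 952 (11.0%) were lower. The median size of a called difference was 0.72 on the log2 scale. A called difference of at least 1 was found for 558 shared genes (6.44%), 319 higher (3.68%) and 239 lower (2.76%). For 6176 shared genes (71.2%) the 95% interval of the difference lay within -1 and 1. CPM are shares of a library, so fewer transcripts per cell and fewer cells that hold them cannot be told apart.

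A higher difference had several forms, and in the main fit on the deposited CPM the commonest was a fall called in Farage alone. Of the 1513 higher genes, 445 fell in Farage and were not called in SUDHL6, 393 fell in both lines and further in Farage, 300 rose in SUDHL6 alone, 211 rose in both and further in SUDHL6, and 157 rose in SUDHL6 and fell in Farage. Of the 952 lower genes, 229 fell in both lines and further in SUDHL6, 225 rose in both and further in Farage, 208 fell in SUDHL6 alone, 197 rose in Farage alone, and 88 fell in SUDHL6 and rose in Farage. The 245 genes called in opposite directions were 2.83% of the shared genes. These forms rest on which responses were called, and they were not counted with other scalings or with a variance per group.

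**Figure D1:**
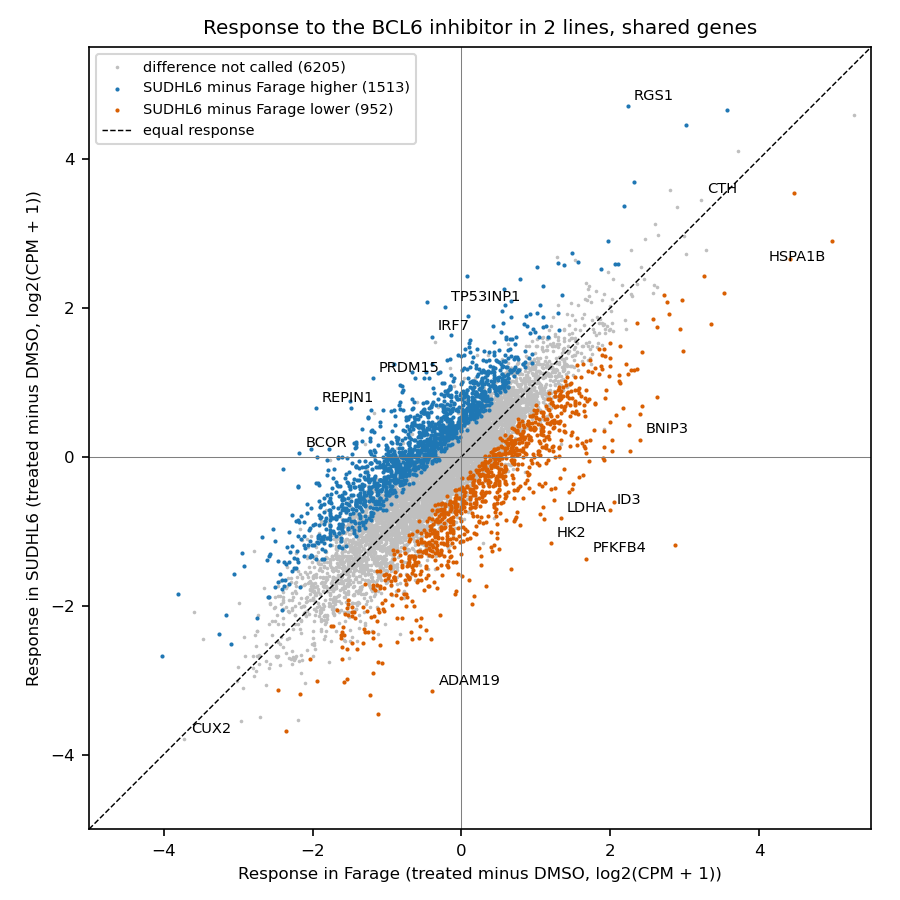
Response in SUDHL6 (vertical axis) against response in Farage (horizontal axis), both treated minus DMSO on the log2(CPM + 1) scale, 1 point for each of the 8670 shared genes. Blue points are the 1513 genes with a called higher difference, orange points the 952 with a called lower difference, and grey points were not called. Most points follow the dashed line of equal response, with PFKFB4, HK2, LDHA and BNIP3 below it and BCOR, REPIN1 and TP53INP1 above it.

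The libraries of the lines were not equally precise. Reads in listed genes ran from 16976220 to 24097618 in 10 libraries and were 7359083 and 6289956 in replicate 3 of SUDHL6 DMSO and SUDHL6 treated. The median SD over shared genes was 0.137 and 0.222 on the log2 scale in SUDHL6 DMSO and treated, against 0.061 and 0.07 in Farage DMSO and treated. The fit shares the spread of a gene among the 4 groups, so a response not called in Farage can reflect scatter in SUDHL6. With a variance per group, 5349 shared genes were called in SUDHL6 and 7540 in Farage, and the difference was called for 2387. In SUDHL6, libraries with the same replicate number deviated from their group means together (r = 0.45, 0.52 and 0.67 for numbers 1 to 3), and in Farage they did not (r = 0.25, -0.18 and -0.32). With the number as a block in SUDHL6, 3952 shared genes were called, 2368 higher and 1584 lower. The share of calls that were higher was 61.4% on the deposited CPM and 51.6% with median-of-ratios scaling. That scaling moved the median response of shared genes from -0.19 to -0.02 in SUDHL6 and from -0.28 to -0.04 in Farage, and the median difference from 0.07 to 0.01. The B cell markers MS4A1, CD79A, CD79B, PAX5, CD22, BLK, BLNK, CD72 and POU2AF1 were present in the libraries of both lines. Markers of T and NK cells summed to 0.535 to 0.77 CPM in SUDHL6 DMSO and 0.242 to 0.444 in SUDHL6 treated. In Farage they summed to 4.62 to 5.06 CPM in DMSO and 3.62 to 4.29 when treated. Of these markers CD3D, CD3E and CD4 were at 0 in the libraries of both lines. In Farage DMSO, PRF1 was at a mean of 2.36 CPM and CD8A at 1.05. TRAT1 went from 0.328 to 1.93 CPM in Farage, the highest of these markers in its treated libraries. Markers of myeloid cells summed to 4.82 to 5.86 CPM in SUDHL6 DMSO and 14.5 to 21 in SUDHL6 treated, against 5.96 to 7.15 and 7.61 to 8.47 in Farage. CD68, a lysosomal protein, made up most of this sum in SUDHL6 (means of 5.07 and 14.5 CPM), and the myeloid markers FCGR3A, CD163, S100A9 and CD33 were at 0 in the libraries of both lines. CD14, at 0.215 and 0.151 CPM in SUDHL6 and Farage DMSO, had responses of 1.25 and 1.32. ITGAM, at 0.0128 and 1.32 CPM there, had responses of 0.63 and -0.52. Stromal and endothelial markers reached 7.41 CPM in Farage DMSO, nearly all COL1A1, and at most 1.54 CPM in Farage treated. The part of these markers in the results was not tested.

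Of the genes in the title of the series, BCOR had a called difference in the main fit and BCL6 and EZH2 did not. BCL6 was at 305, 409 and 262 CPM in SUDHL6 DMSO, 214, 324 and 227 in SUDHL6 treated, 207, 205 and 203 in Farage DMSO and 205, 205 and 224 in Farage treated. The SUDHL6 groups overlapped, as did the Farage groups, and the difference of -0.39 ± 0.24 (SE) was not called (limma adjusted p = 0.232). The BCL6 difference was called with the replicate number as a block in SUDHL6 (limma adjusted p = 0.00457) or in both lines (limma adjusted p = 0.0172). Without SUDHL6 treated replicate 2 it was -0.58 and was called (limma adjusted p = 0.0451). EZH2 gave a difference of -0.27 with a 95% interval of -0.86 to 0.32 (limma adjusted p = 0.482). Without SUDHL6 treated replicate 3 the EZH2 difference was -0.55 and was called (limma adjusted p = 0.016), as it was without both replicate 3 libraries of SUDHL6 (-0.44, limma adjusted p = 0.0158). BCOR, the corepressor that joins BCL6 to a PRC1 complex, was at 83.6, 79.3 and 64.7 CPM in SUDHL6 DMSO and 64.7, 89.9 and 81.7 in SUDHL6 treated. In Farage it was at 74.4, 71.1 and 72.1 CPM in DMSO and 14.8, 13.1 and 18.1 when treated. The lines thus began at like levels of BCOR, and the treated libraries of Farage lay far below the other 9. The difference was 2.23 ± 0.20 (SE; limma adjusted p = 1.76e-05). CBX8, the chromobox subunit, was not a shared gene, with a mean of 3.75 CPM in Farage DMSO. It fell in Farage to 0.952 CPM (mean; -1.29, limma adjusted p = 8.69e-05) and was 13.9 and 11.1 CPM in SUDHL6 DMSO and treated. Its difference of 0.96 was called (limma adjusted p = 0.0185), but not without Farage DMSO replicate 2 (0.89, adjusted p = 0.0507) or Farage treated replicate 2 (0.86, adjusted p = 0.053).

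Genes of glycolysis and of the hypoxia response were the list in which the lines parted most. Glycolysis turns glucose into pyruvate, lactate dehydrogenase turns pyruvate into lactate, and hypoxia-inducible factor, which binds the letters ACGTG, raises the transcription of many of these enzymes. The promoters of 4 list members with large differences are shown because each of these transcripts rose in Farage and because those letters stand in them. LDHA and HK2 have 2 start sites each in the table, of which the one with more matches is shown. The other window has 0 matches for LDHA and 2 for HK2. Sequences are from RefSeq (GRCh38.p14), the 250 bases before a transcription start, 5′ to 3′ on the gene's strand. Capitals mark ACGTG on the printed strand or CACGT, its reverse complement, and where both overlap they form CACGTG, which MYC and related factors also bind.
BNIP3, chr10:131981924-131982173, minus strand: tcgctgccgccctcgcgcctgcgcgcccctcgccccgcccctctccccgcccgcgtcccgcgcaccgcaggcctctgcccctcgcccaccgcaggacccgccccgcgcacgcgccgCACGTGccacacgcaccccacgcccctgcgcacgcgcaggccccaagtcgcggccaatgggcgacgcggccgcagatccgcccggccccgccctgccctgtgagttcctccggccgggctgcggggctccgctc
LDHA, chr11:18394313-18394562, plus strand: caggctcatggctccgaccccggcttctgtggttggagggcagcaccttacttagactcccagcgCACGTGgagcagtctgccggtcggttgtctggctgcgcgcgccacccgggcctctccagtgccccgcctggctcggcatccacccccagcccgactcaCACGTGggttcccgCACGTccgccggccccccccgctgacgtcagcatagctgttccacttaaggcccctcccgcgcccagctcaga
HK2, chr2:74834920-74835169, plus strand: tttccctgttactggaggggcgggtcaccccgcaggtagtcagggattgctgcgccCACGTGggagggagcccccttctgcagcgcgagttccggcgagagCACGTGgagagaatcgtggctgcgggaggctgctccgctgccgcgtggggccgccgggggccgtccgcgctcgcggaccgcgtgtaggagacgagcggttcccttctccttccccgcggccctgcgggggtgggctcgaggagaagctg
P4HA1, chr10:73096867-73097116, minus strand: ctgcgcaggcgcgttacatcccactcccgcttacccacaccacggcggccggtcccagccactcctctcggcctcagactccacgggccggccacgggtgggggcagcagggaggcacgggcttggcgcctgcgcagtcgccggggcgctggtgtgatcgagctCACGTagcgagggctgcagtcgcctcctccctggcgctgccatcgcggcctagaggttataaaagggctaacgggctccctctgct
ACGTG on either strand stood in 23.8% of all 10351 windows that matched 7183 of the shared genes. It stood in 22.9% of the windows of genes with a higher difference and 29.5% of those with a lower one. Of the windows of the glycolysis and hypoxia list, 19 of 49 (38.8%) held it, and for the list's genes with a lower difference 16 of 26 (61.5%). These windows belong to 25 and 16 genes. A gene with several start sites counts once for each, so shares of windows are not shares of genes. PFKFB4, the member with the largest difference, had no match in its window. These letters are a description of the windows, and binding was not measured.

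Of the 28 shared members, 19 had a lower difference in SUDHL6 than in Farage, 2 a higher one and 7 were not called. The median difference was -1.03, against 0.07 over shared genes, and 75.0% of members were called, against 28.4%. In Farage 20 members rose and 3 fell, and in SUDHL6 8 rose and 9 fell. Over shared genes 25.3% rose and 48.0% fell in Farage, and 28.0% rose and 43.9% fell in SUDHL6. PFKFB4, an enzyme that makes the activator of phosphofructokinase, was at 7.97, 9.55 and 17.3 CPM in SUDHL6 DMSO and 2.45, 4 and 4.83 in SUDHL6 treated. In Farage it was at 5.07, 6.35 and 6 CPM in DMSO and 20.8, 22.1 and 19 when treated. The groups of each line did not overlap and moved in opposite directions, with a difference of -3.04 ± 0.35 (SE; limma adjusted p = 9.41e-05). HK2, the hexokinase that starts glycolysis, crossed over in the same way. It was at 112, 112 and 106 CPM in SUDHL6 DMSO, 59.8, 44.9 and 43.2 in SUDHL6 treated, 34.2, 33.3 and 34.1 in Farage DMSO and 77.9, 79 and 81.1 in Farage treated. Its difference was -2.36 ± 0.15 (SE; limma adjusted p = 2e-06), the smallest p among the 28 members. LDHA, the lactate dehydrogenase subunit, was at 604, 678 and 972 CPM in SUDHL6 DMSO and 396, 406 and 438 in SUDHL6 treated. In Farage LDHA was at 482, 538 and 493 CPM in DMSO and 1187, 1260 and 1365 when treated. The SUDHL6 mean fell from 751 to 413 CPM and the Farage mean rose from 504 to 1270 CPM, with a difference of -2.16 (limma adjusted p = 2.26e-05).

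Other members rose in Farage with little or smaller movement in SUDHL6. BNIP3, a mitochondrial BCL2 family protein induced in low oxygen, was at 13.6, 15.1 and 19.5 CPM in SUDHL6 DMSO and 20.2, 16.9 and 19.7 in SUDHL6 treated. The Farage libraries had 25.1, 30 and 29.3 CPM in DMSO and 150, 153 and 151 when treated. Its SUDHL6 groups overlapped, and its difference was -2.16 (limma adjusted p = 9.38e-06). P4HA1, a prolyl hydroxylase of collagen, rose in both lines, from a mean of 41.7 to 61.9 CPM in SUDHL6 and from 38.8 to 208 CPM in Farage (difference -1.82, limma adjusted p = 9.05e-06). The glucose transporter SLC2A3 rose from 9.71 to 15.7 CPM in SUDHL6 and from 29.3 to 162 CPM in Farage. VEGFA, the endothelial growth factor, rose in both as well, from 81.5 to 285 CPM in SUDHL6 and from 16.6 to 178 CPM in Farage. TPI1, PFKP, PFKFB3, ALDOC, GPI, ENO1, SLC2A1, BNIP3L and PGK1 had called differences between -1.56 and -0.97. HIF1A, the oxygen-regulated subunit of hypoxia-inducible factor itself, went the other way at the transcript level. It rose in SUDHL6 from 82.6 to 135 CPM and was 337 and 304 CPM in Farage DMSO and treated (difference 0.85, limma adjusted p = 0.000135). With the replicate block in SUDHL6, 24 members were lower and 3 higher, against 1584 and 2368 of the 8670 shared genes. In the main fit, 18 of the 19 lower calls held when any 1 of the 12 libraries was left out.

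**Figure D2:**
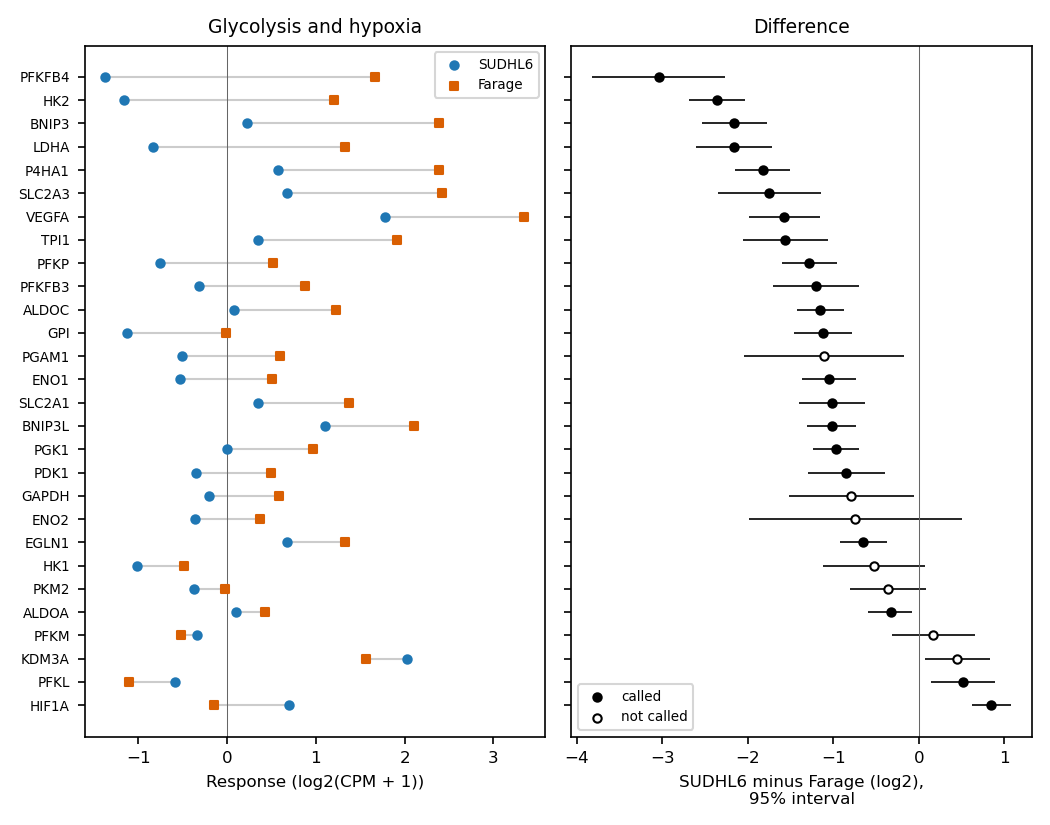
Left: response (treated minus DMSO, log2(CPM + 1)) of the 28 shared members of the glycolysis and hypoxia list in SUDHL6 (blue circles) and Farage (orange squares). Right: the difference, SUDHL6 minus Farage, with its 95% interval, where filled points were called and open points were not. Of the members, 19 have called differences below 0 and 2, PFKL and HIF1A, above 0.

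Of 25 shared heat shock genes, 16 rose in SUDHL6 and none fell, and 24 rose in Farage and 1 fell. Over shared genes 28.0% rose in SUDHL6 and 25.3% in Farage. The difference was lower in SUDHL6 for 12 of the 25 heat shock genes. These genes encode chaperones that refold proteins, and heat shock factor binds inverted repeats of the letters GAA in their promoters. HSPA1B, an inducible member of the HSP70 family, is shown because its response was among the largest in either line. The capitals mark GAANNTTC, which reads the same on both strands, in its RefSeq window (GRCh38.p14).
HSPA1B, chr6:31827488-31827737, plus strand: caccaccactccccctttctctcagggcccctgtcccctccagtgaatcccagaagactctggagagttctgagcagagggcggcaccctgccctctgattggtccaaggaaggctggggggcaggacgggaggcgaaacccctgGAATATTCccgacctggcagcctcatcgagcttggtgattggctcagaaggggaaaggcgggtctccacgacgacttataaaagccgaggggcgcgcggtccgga
The letters GAANNTTC stood in 4.19% of the windows of shared genes and in 12 of 37 windows (32.4%) of the heat shock list. For the list's genes with a lower difference they stood in a like share, 6 of 19 windows (31.6%). HSPA1B was at 11.8, 15.4 and 16 CPM in SUDHL6 DMSO and 122, 105 and 111 in SUDHL6 treated. The Farage libraries held it at 9.53, 9.22 and 9.19 CPM in DMSO and 320, 324 and 326 when treated. The treated groups of the lines did not overlap, and the difference was -2.08 ± 0.15 (SE; limma adjusted p = 3.38e-06). Reads of HSPA1B can also come from its near-identical copy HSPA1A, so its level is uncertain. The 12 lower differences were 48.0% of the list's shared members, against 11.0% of shared genes. The other 13 were not called, and the list's median was -0.49. Each of the 12 rose in Farage. The constitutive HSP70 member HSPA8 was at a mean of 1909 ± 588 and 1988 ± 316 CPM (SD, n = 3) in SUDHL6 DMSO and treated, and rose from 1979 ± 144 to 4456 ± 196 CPM in Farage. The mitochondrial chaperonin pair HSPD1 and HSPE1 rose in Farage alone, with differences of -1.05 and -0.91. DNAJB1, an HSP40 cochaperone, rose in both lines, from 88.3 to 485 CPM in SUDHL6 and from 86.3 to 829 CPM in Farage (difference -0.82, limma adjusted p = 0.002). Of the 12 lower calls, 9 held when any 1 library was left out, CCT2, HSPA4L and HSPH1 being the exceptions.

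ATF4 drives the transcription of amino acid transporters, synthetic enzymes and tRNA ligases. In each line 28 of the 35 shared members of the ATF4 list rose, against 28.0% of shared genes in SUDHL6 and 25.3% in Farage. Of these members, 7 had a higher and 9 a lower difference (45.7% called, against 28.4% of shared genes), and with median-of-ratios scaling 5 and 11. SLC7A5, the light chain of the large neutral amino acid transporter, was at 306, 362 and 334 CPM in SUDHL6 DMSO and 590, 551 and 602 in SUDHL6 treated. Farage had 162, 155 and 147 CPM in DMSO and 966, 936 and 990 when treated. It thus went from below the SUDHL6 level to above it, with a difference of -1.83 ± 0.11 (SE; limma adjusted p = 1.38e-06). Its partner chain SLC3A2 rose from 180 to 688 CPM in SUDHL6 and from 141 to 978 CPM in Farage (difference -0.88, limma adjusted p = 0.00482). TRIB3, a pseudokinase induced by ATF4, went the other way, rising from 10.6 to 142 CPM in SUDHL6 and from 23.4 to 121 CPM in Farage (difference 1.37, limma adjusted p = 0.0181). Among the 21 shared members of the NRF2 list, which hold glutathione and NADPH genes, 5 had a higher and 2 a lower difference, so the share called (33.3%) was near that of shared genes. SQSTM1, an autophagy receptor and NRF2 target, was at 96.8, 96.5 and 68 CPM in SUDHL6 DMSO and 2567, 1737 and 1534 in SUDHL6 treated. In Farage it rose from 238, 266 and 250 CPM to 1945, 1966 and 2245. The treated groups of the lines overlapped and the DMSO groups did not, so the larger response in SUDHL6 (difference 1.43, limma adjusted p = 0.00154) went with a lower starting level.

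Immediate early genes, which cells switch on soon after a stimulus, were called in 10 of 15 shared members (66.7%, against 28.4% of shared genes). Of these calls 7 were lower and 3 higher. EGR1, a zinc finger factor, was at 53.6, 53.5 and 32.8 CPM in SUDHL6 DMSO and 25.6, 29.2 and 20.9 in SUDHL6 treated. In Farage EGR1 was at 44.3, 43 and 39.3 CPM in DMSO and 90.2, 87.3 and 99.8 when treated. It fell in SUDHL6 and rose in Farage (difference -1.95, limma adjusted p = 0.000167). The phosphatase gene DUSP5 rose in both lines, from 17.4 to 115 CPM in SUDHL6 and from 5.44 to 136 CPM in Farage (difference -1.76, limma adjusted p = 0.000221). NR4A1, a nuclear receptor, rose from 15.1 to 35.6 CPM in SUDHL6 and from 45.7 to 239 CPM in Farage. RGS1, a regulator of G protein signalling, went the other way. It was at 10, 5.17 and 6.85 CPM in SUDHL6 DMSO and 389, 205 and 118 in SUDHL6 treated, and rose in Farage from 368, 406 and 395 to 1778, 1885 and 1824 CPM. Its difference of 2.48 ± 0.47 (SE; limma adjusted p = 0.00216) was a difference of ratios, since its level stayed lower in SUDHL6 in each treated library.

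MYC fell in both lines and further in SUDHL6, and most listed genes of ribosome production fell in each line. MYC, the transcription factor that drives growth, was at 349, 361 and 318 CPM in SUDHL6 DMSO and 115, 126 and 134 in SUDHL6 treated. In Farage it was at 175, 189 and 169 CPM in DMSO and 141, 134 and 168 when treated. The lines lay further apart in DMSO than when treated, with a difference of -1.18 ± 0.14 (SE; limma adjusted p = 8.82e-05). Of the 38 shared members of the list of MYC targets and ribosome biogenesis, 35 fell and 1 rose in SUDHL6, and 30 fell and 3 rose in Farage. Over shared genes 43.9% fell in SUDHL6 and 48.0% in Farage. The difference was lower for 14 members of the list (36.8%, against 11.0% of shared genes) and not called for the other 24, with a median of -0.25. POLR1B, a subunit of RNA polymerase I, fell from 118 to 50.1 CPM in SUDHL6 and from 87.2 to 68.6 CPM in Farage (difference -0.89, limma adjusted p = 0.000422). DKC1, which modifies ribosomal RNA, fell from 196 to 76.8 CPM in SUDHL6 and from 179 to 111 CPM in Farage (difference -0.65, limma adjusted p = 0.000565). NOLC1, FBL, NOP56 and NAT10, all nucleolar proteins, had called differences between -0.91 and -0.44. LDHA and HSPD1, which rose in Farage, are among the 14 and were described above. CDK2, the kinase of the entry into S phase, moved in opposite directions. It was at 103, 123 and 134 CPM in SUDHL6 DMSO and 58.1, 86.1 and 99.5 in SUDHL6 treated, and rose in Farage from 153, 155 and 157 to 360, 372 and 369 CPM (difference -1.82, limma adjusted p = 0.000146). CDKN1B, a gene that restrains that kinase, rose in SUDHL6 alone, from 17.8 to 38.6 CPM, and was 51.9 and 48.4 CPM in Farage (difference 1.16, limma adjusted p = 0.00159).

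The p53 list leaned to SUDHL6. p53 switches on genes of cell cycle arrest, DNA repair and apoptosis after damage, and BCL6 is known to hold several of them down in germinal centre cells. Of 24 shared members, 12 had a higher difference, 2 a lower one and 10 were not called, with a median of 0.52. The share called was 58.3%, against 28.4% of shared genes. Over all shared genes 17.5% were higher and 11.0% lower, with a median of 0.07. In SUDHL6 12 members rose and 8 fell, and in Farage 6 rose and 11 fell. Over shared genes 28.0% rose and 43.9% fell in SUDHL6, and 25.3% rose and 48.0% fell in Farage. TP53INP1, a stress protein that helps p53 act and takes part in autophagy, was at 83.4, 60.1 and 30.4 CPM in SUDHL6 DMSO and 249, 188 and 224 in SUDHL6 treated. In Farage it was at 95.3, 88.9 and 95.8 CPM in DMSO and 80.1, 80.4 and 79.4 when treated. It rose in SUDHL6 and was not called in Farage (-0.22, limma adjusted p = 0.48), with a difference of 2.23 ± 0.37 (SE; limma adjusted p = 0.00101). The Farage groups of TP53INP1 did not overlap, and the p of its Farage response also carries the spread of SUDHL6. GADD45B, a growth arrest gene, rose in SUDHL6 from 18.1, 18.3 and 22 CPM to 65.5, 50.8 and 36.4, and was at 124, 127 and 118 CPM in Farage DMSO and 105, 109 and 119 when treated (difference 1.45, limma adjusted p = 0.000788). BTG1, an antiproliferative gene, rose from 87.4 to 200 CPM in SUDHL6 and was 211 and 222 CPM in Farage (difference 1.10, limma adjusted p = 9.87e-05). For each of these 3 genes the SUDHL6 level was below the Farage level before treatment. XPC, a DNA damage sensor, was 60.6 and 66.4 CPM in SUDHL6 and fell from 52.7 to 25.9 CPM in Farage. CDKN1A, the best known p53 target, rose in both lines, from 7.38 ± 2.89 to 57.7 ± 30.4 CPM (SD, n = 3) in SUDHL6 and from 112 ± 4.45 to 275 ± 2.15 CPM in Farage. Its difference of 1.40 had a 95% interval of 0.24 to 2.55 and was not called (limma adjusted p = 0.0641). Of the 12 higher calls, 9 held when any 1 library was left out, BAX, C12orf5 and SESN2 being the exceptions.

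Among cell death genes, 4 of 10 shared members of the TRAIL and FAS list had a higher difference, against 17.5% of shared genes, and 6 were not called. With median-of-ratios scaling 4 were higher and 1 lower. CFLAR, which blocks caspase 8, was far lower in SUDHL6, at 7.67, 5.81 and 7.39 CPM in DMSO and 7.79, 11.2 and 16.3 when treated. In Farage it fell from 209, 212 and 213 CPM to 90.3, 91.6 and 88.5 (difference 1.85, limma adjusted p = 0.000399). TNFRSF10B, a TRAIL receptor that is also a p53 target, rose from 21.1 to 65.2 CPM in SUDHL6 and from 140 to 234 CPM in Farage (difference 0.86, limma adjusted p = 0.0125). In the BCL2 family, 2 of 13 shared members had a higher and 4 a lower difference (46.2% called, against 28.4% of shared genes). The sign of the median turned with the scaling (0.03 on CPM, -0.03 with median-of-ratios). The 4 lower calls held when any 1 library was left out, and neither of the higher ones did. BCL2L11, the proapoptotic BIM, rose from 54.9 to 125 CPM in SUDHL6 and from 22 to 113 CPM in Farage (difference -1.16, limma adjusted p = 0.00292). BCL2 itself, an inhibitor of apoptosis, was 194 and 162 CPM in SUDHL6 and rose from 315 to 457 CPM in Farage (difference -0.78, limma adjusted p = 0.0191).

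**Figure D3:**
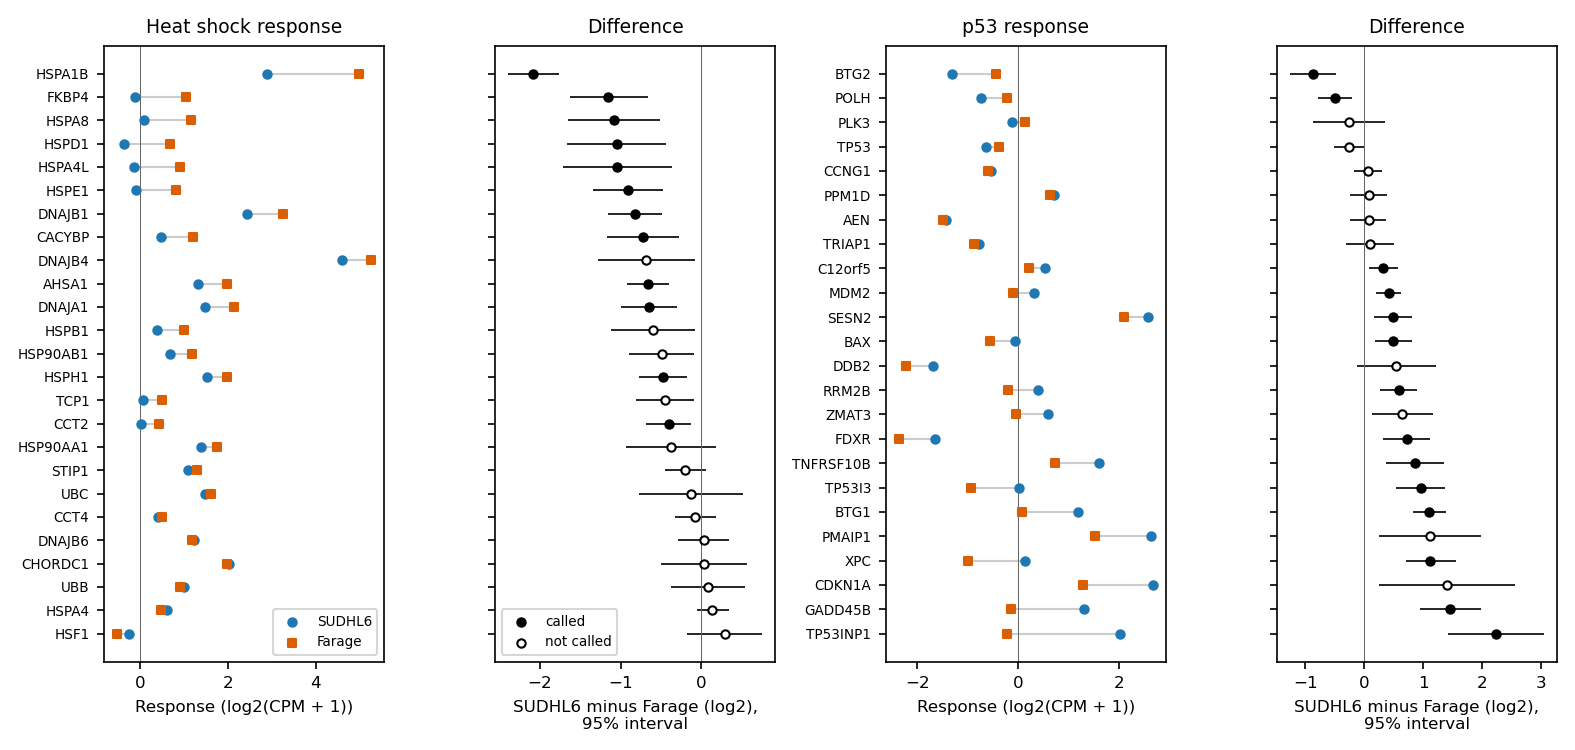
Responses (treated minus DMSO, log2(CPM + 1)) in SUDHL6 (blue circles) and Farage (orange squares), and the difference with its 95% interval (filled, called; open, not called), for the 25 shared members of the heat shock list and the 24 of the p53 list. In the heat shock list, 12 differences are called, each below 0, and in the p53 list 12 are called above 0 and 2, BTG2 and POLH, below.

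The NF-kB inhibitors NFKBIE and NFKBIA fell in Farage and were not called in SUDHL6. NF-kB is the transcription factor family downstream of CD40, and it drives the genes of its own inhibitors. Of 21 shared members of the NF-kB and CD40 list, 8 had a higher difference and 4 a lower one, with a median of 0.49. The share called was 57.1%, against 28.4% of shared genes, whose median was 0.07. NFKBIE was at 46.4, 52.2 and 49.5 CPM in SUDHL6 DMSO and 43.7, 56.2 and 46.6 in SUDHL6 treated. In Farage it fell from 125, 137 and 129 CPM to 39.7, 38.3 and 43.9. Farage lay above SUDHL6 in DMSO and overlapped it when treated, with a difference of 1.64 ± 0.14 (SE; limma adjusted p = 1.23e-05). NFKBIA had the same form, with 37.2 and 33.8 CPM in SUDHL6 and a fall from 223 to 83.5 CPM in Farage (difference 1.28, limma adjusted p = 0.000158). CD83, a surface protein of activated B cells, moved the other way. It was 105 and 107 CPM in SUDHL6 and rose in Farage from 132, 136 and 134 CPM to 413, 433 and 436 (difference -1.62, limma adjusted p = 0.000423).

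Interferon genes mostly fell in both lines, 9 of 14 shared members in SUDHL6 and 11 in Farage, where 43.9% and 48.0% of all shared genes fell. Of the 14, 5 (35.7%) had a higher difference, against 17.5% of shared genes, and 9 were not called (median 0.54). IRF7, the interferon regulatory factor, was at 23.4, 31.9 and 23.2 CPM in SUDHL6 DMSO and 99.4, 75.1 and 71.6 in SUDHL6 treated. In Farage IRF7 fell from 24.9, 23.2 and 21.3 CPM to 17.9, 16.5 and 17.6. From like starting levels the lines moved apart, with a difference of 2.01 ± 0.21 (SE; limma adjusted p = 3.72e-05). IRF9, a DNA-binding subunit of the complex that acts on interferon-stimulated genes, rose from 25.4 to 53.9 CPM in SUDHL6 and fell from 65 to 42.2 CPM in Farage (difference 1.67, limma adjusted p = 2.87e-05).

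In the antigen presentation list 7 of 23 shared members had a higher difference and 4 a lower one (47.8% called, against 28.4% of shared genes). The class I genes HLA-B, HLA-C and B2M were among the higher calls, with differences of 0.80, 1.13 and 0.51. Class II went both ways: HLA-DQB1 was 261 and 235 CPM in SUDHL6 and rose from 5.49 to 15.8 CPM in Farage (difference -1.55, limma adjusted p = 0.000189), and HLA-DPB1 had a difference of 0.54. Genes of the HLA family share sequence, and reads of the lines' own alleles may map unequally, so their levels are uncertain. The costimulatory ligands CD80 and CD86, both known to be opposed by BCL6 or raised on B cell activation, had higher differences. CD86 rose from 86.6, 101 and 127 CPM to 220, 310 and 219 in SUDHL6 and fell from 100, 102 and 101 to 74, 79.2 and 77.3 in Farage (difference 1.64, limma adjusted p = 0.000165). CD80 was 30.8 and 37.5 CPM in SUDHL6 and fell from 177 to 95.8 CPM in Farage (difference 1.15, limma adjusted p = 0.000144).

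**Figure D4:**
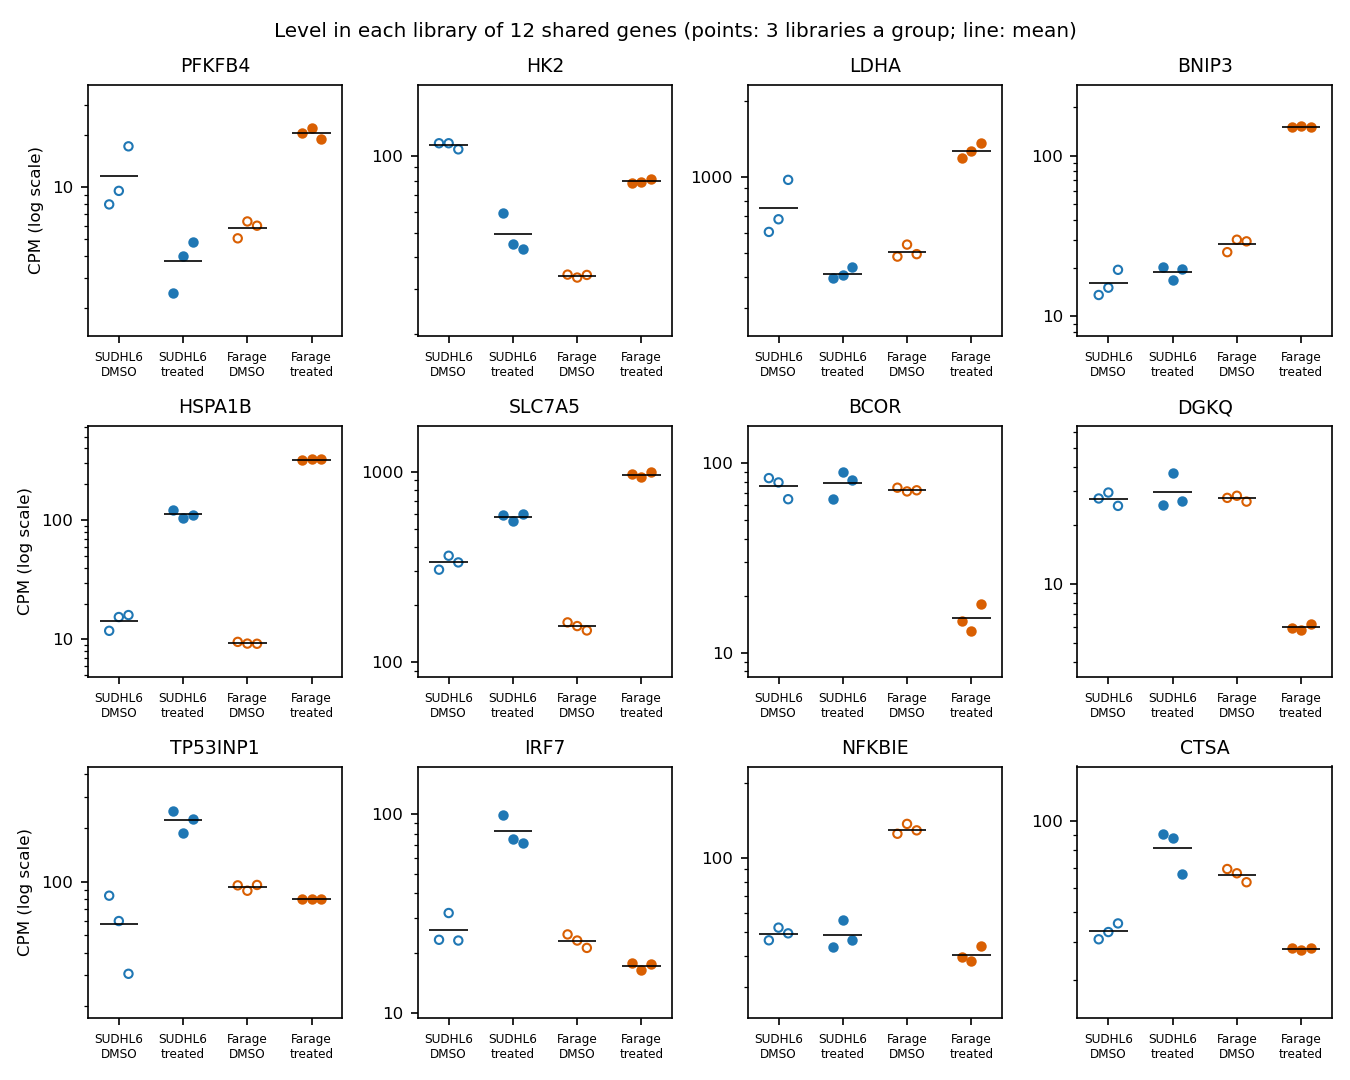
Level in each library (CPM, logarithmic axis) of 12 shared genes with called differences, in SUDHL6 (blue) and Farage (orange), with DMSO as open and treated as filled circles and the line at the mean of 3 libraries. PFKFB4, HK2 and LDHA fall in SUDHL6 and rise in Farage, BCOR and DGKQ fall in Farage alone, and IRF7 rises in SUDHL6 and falls in Farage.

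In the lists of Polycomb genes and BCL6 corepressors, BCOR had the largest difference. In the list of PRC1 and the BCOR complex, 5 of 24 shared members were higher and 1, the deubiquitinase USP7, was lower, so the share called (25.0%) was near that of shared genes. Next to BCOR, AUTS2, an activator bound to a PRC1 complex, fell from 37.5 to 25 CPM in SUDHL6 and from 343 to 112 CPM in Farage (difference 1.03, limma adjusted p = 0.00024). PCGF5, a ring finger subunit, rose from 17.4 to 43.4 CPM in SUDHL6 and from 149 to 187 CPM in Farage (difference 0.95, limma adjusted p = 0.000245). In the PRC2 list 2 of 13 were higher and 1 lower (23.1% called), and the median turned from 0.06 on CPM to -0.01 with median-of-ratios scaling. The lowest difference of that list was -1.07, of C17orf96, which went from 26.9 to 14.9 CPM in SUDHL6 and from 27.5 to 33.1 CPM in Farage. JARID2, a PRC2 accessory protein, rose from 31.4 to 48.1 CPM in SUDHL6 and was 19.7 and 16.9 CPM in Farage (difference 0.80, limma adjusted p = 0.00928). Of 19 shared BCL6 corepressors, 6 were higher and 1 lower (36.8% called, against 28.4% of shared genes). TBL1X, an exchange factor of the NCOR complex, rose from 50 to 173 CPM in SUDHL6 and was 50.6 and 68.2 CPM in Farage (difference 1.33, limma adjusted p = 0.00206). HDAC3, the deacetylase of that complex, fell from 110 to 83.5 CPM in SUDHL6 and was 73.5 and 83.3 CPM in Farage (difference -0.58, limma adjusted p = 0.00434). In the list of genes BCL6 is known to repress or oppose, 5 of 17 shared members were higher and 2 lower (41.2% called). With the replicate block in SUDHL6 these counts were 8 and 5, against 2368 and 1584 of the 8670 shared genes. Both lines had a median response of 0.02. Of these genes ID2, an inhibitor of helix-loop-helix factors, rose from 5.16, 4.98 and 9 CPM to 32.8, 31.2 and 16.2 in SUDHL6 and was at 46.9, 50.8 and 48.6 CPM in Farage DMSO and 51.6, 55.1 and 48.7 when treated (difference 1.80, limma adjusted p = 0.00248).

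Respiratory chain, proteasome and lysosome genes were called at shares near or below those of all shared genes. Of 52 shared genes of oxidative phosphorylation, 11 (21.2%) were higher, against 17.5% of shared genes, with a median of 0.23, and the rest were not called. With the replicate block in SUDHL6, 18 were higher, and with median-of-ratios scaling 9 were higher and 1 lower. These genes fell in 37 and 44 of 52 cases in SUDHL6 and Farage, against 43.9% and 48.0% of shared genes. NDUFB7, a subunit of complex I, fell from 44.4 to 21.8 CPM in SUDHL6 and from 24 to 4.06 CPM in Farage (difference 1.30, limma adjusted p = 0.000422). Of 36 shared proteasome genes, 6 (16.7%) were higher and 30 not called (13 higher and 2 lower with the replicate block in SUDHL6), and PSMD4, a ubiquitin receptor of the proteasome, was 105 and 104 CPM in SUDHL6 and fell from 92.7 to 56 CPM in Farage (difference 0.71, limma adjusted p = 0.00121). In the autophagy and lysosome list 7 of 38 were higher and 2 lower on CPM, and 5 and 5 with median-of-ratios scaling. CTSA, a lysosomal carboxypeptidase, rose from 40.7, 43 and 45.9 CPM to 90.1, 87.4 and 66.8 in SUDHL6 and fell from 69.3, 67.1 and 62.7 CPM to 38.1, 37.4 and 38.2 in Farage. Its groups crossed over without overlap within a line, with a difference of 1.68 ± 0.15 (SE; limma adjusted p = 1.66e-05). GABARAPL2, a protein of autophagosome membranes, rose from 55 to 122 CPM in SUDHL6 and fell from 216 to 173 CPM in Farage (difference 1.44, limma adjusted p = 0.00017).

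Several of the largest differences lay outside these lists. REPIN1, a zinc finger protein, had the largest higher difference of the genes ranked, and it rose in SUDHL6 from 20.4, 19.4 and 39 CPM to 32.3, 34.2 and 57.1 and fell in Farage from 144, 137 and 133 to 34.8, 32.2 and 37.1 (2.62 ± 0.35, SE; limma adjusted p = 0.000249). The long noncoding RNA MIAT rose from 7.32, 10.2 and 9 CPM to 32.1, 53.3 and 38.2 in SUDHL6 and fell from 23.8, 22 and 24.3 to 16.6, 16 and 17.6 in Farage (2.54, limma adjusted p = 2e-05). DGKQ, a diacylglycerol kinase, began at the same level in both lines, 27.5, 29.5 and 25.2 CPM in SUDHL6 and 27.7, 28.4 and 26.5 in Farage. It ended at 25.5, 37.1 and 26.6 CPM in SUDHL6 and at 5.96, 5.84 and 6.27 in Farage (2.12, limma adjusted p = 1.35e-05). PRDM15, a transcription factor, had differing replicates in SUDHL6, at 414, 552 and 246 CPM in DMSO and 1366, 920 and 399 when treated, and fell in Farage from 73.2 to 31.5 CPM (2.24, limma adjusted p = 0.00784). PLXNB2, SH3TC1, PBXIP1 and SNX22 had differences of 2.23, 2.15, 2.13 and 1.95. At the lower end, the metalloprotease ADAM19 was at 134, 169 and 139 CPM in SUDHL6 DMSO and 148, 149 and 152 in Farage DMSO. It fell to 7.62, 27 and 18 CPM in SUDHL6 and was at 107, 109 and 127 in Farage treated (-2.76 ± 0.44, SE; limma adjusted p = 0.000734). ID3, an inhibitor of helix-loop-helix factors like ID2, fell in SUDHL6 from 37.4, 35.1 and 30.6 CPM to 21.9, 27.1 and 14.3 and rose in Farage from 5.63, 6.1 and 3.91 to 22.3, 21.9 and 26.5 (-2.71, limma adjusted p = 5.73e-05). ID2 and ID3 thus had differences of opposite sign. FAM53B fell in SUDHL6 from 311 to 78.4 CPM and was 161 and 177 CPM in Farage (-2.12, limma adjusted p = 3.38e-06). FAM57A, FAM81A, B3GNT7 and DHRS13 had differences of -2.66, -2.33, -2.18 and -2.17. These largest genes were ranked among calls that held when each of the 12 libraries was left out in turn.

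Genes called in opposite directions with large responses in each line included TIFA, an adaptor of NF-kB signalling, and BRD3, a reader of acetylated histones. TIFA rose from 28.5, 32.8 and 34.2 CPM to 55.5, 67 and 65.6 in SUDHL6 and fell from 133, 151 and 148 to 76.6, 81.7 and 83 in Farage (difference 1.79, limma adjusted p = 5.51e-06). BRD3 rose from 10.8 to 21.7 CPM in SUDHL6 and fell from 30.5 to 17.1 CPM in Farage (difference 1.75, limma adjusted p = 5.36e-05). BRD3 began lower in SUDHL6 and ended higher there, whereas TIFA stayed lower in SUDHL6 in each treated library. In the reverse direction CD48, a ligand of SLAM family receptors, fell from 178, 138 and 173 CPM to 91.8, 88.5 and 111 in SUDHL6 and rose from 260, 291 and 274 to 440, 464 and 478 in Farage (difference -1.48, limma adjusted p = 4.59e-05). KLF16, a zinc finger factor, fell from 28.8 to 16.4 CPM in SUDHL6 and rose from 12.3 to 26.6 CPM in Farage (difference -1.82, limma adjusted p = 7.99e-05). CRELD2, an endoplasmic reticulum protein of the unfolded protein response, fell from 32 to 17.5 CPM in SUDHL6 and rose from 67.8 to 112 CPM in Farage (difference -1.56, limma adjusted p = 2.22e-05).

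Against these, a large part of the response had a difference whose interval stayed within -1 and 1. Such a gene can still have a called difference, the smallest of which was 0.24 in size. The gene CTH, which makes cysteine, rose from 6.12, 9.51 and 6.43 CPM to 109, 75.7 and 84.4 in SUDHL6 and from 19.9, 20.1 and 20.3 to 193, 199 and 192 in Farage, with a difference of 0.24 (95% interval -0.24 to 0.71). TSC22D3, a leucine zipper protein induced by glucocorticoids, rose by 2.96 and 2.99 on the log2 scale in SUDHL6 and Farage (interval -0.78 to 0.72). CUX2, a homeobox factor, fell from 152, 203 and 263 CPM to 9.42, 18.5 and 14.3 in SUDHL6 and from 145, 136 and 139 to 10.8, 9.42 and 9.02 in Farage (interval -0.75 to 0.60). The receptor gene TLR10 fell from 164 to 23 CPM in SUDHL6 and from 115 to 16.1 CPM in Farage (interval -0.91 to 0.66). The lists of DNA replication and mitosis, whose members mostly fell in both lines, were called in 2 of 38 and 1 of 35 shared members, below the 28.4% of shared genes, and each of these calls was lost when some 1 library was left out. With the replicate block in SUDHL6, DNA replication had 4 higher and 7 lower calls and mitosis 1 and 4. By DESeq2 these were 1 and 3, and 0 and 2, with RRM1 (-1.03) called by edgeR and DESeq2 but not in the main fit. Some members scattered widely in SUDHL6 treated, where CDC20 was at 39.2 ± 25.4 and CDC6 at 37.4 ± 22.7 CPM (SD, n = 3). In Farage treated they were at 7.67 ± 0.548 and 38.5 ± 1.94 CPM. Of the 69 shared cytosolic ribosomal proteins, limma, edgeR and DESeq2 called 0, with 1 at an unadjusted p under 0.05 and 6 called with the replicate block in SUDHL6. The 10 B cell markers fell in 10 and 9 cases in SUDHL6 and Farage, where 43.9% and 48.0% of shared genes fell. For these markers limma called 0 differences, with 1 at an unadjusted p under 0.05, 1 by edgeR, 1 by DESeq2 and 3 with the block. Germinal centre genes and B cell receptor genes were called in 2 of 18 and 2 of 25 shared members by limma. With the block these counts were 12 and 8, where 3952 of all 8670 shared genes were called. Among the limma calls, GNA13, a G protein subunit that restrains germinal centre B cells, had a difference of -1.12 and SERPINA9, a germinal centre marker, 1.55. A p that misses the threshold does not show that the lines responded alike.

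**Figure D5:**
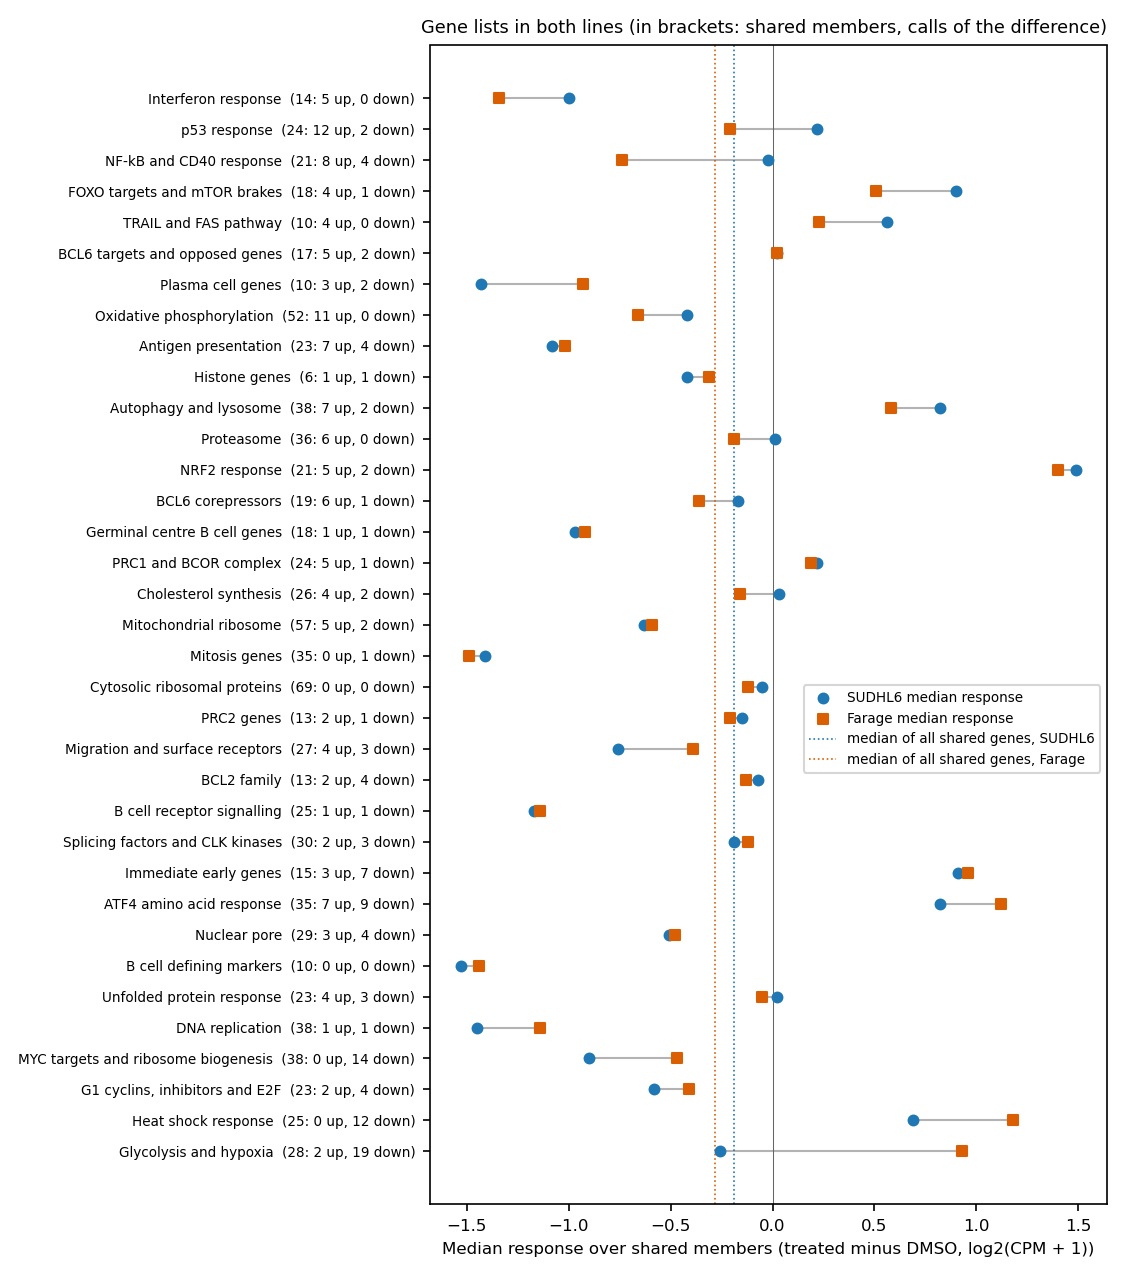
Median response (treated minus DMSO, log2(CPM + 1)) over the shared members of each gene list in SUDHL6 (blue circles) and Farage (orange squares), in order of the median difference, with the number of shared members and of called differences in brackets. Dotted lines mark the medians of all shared genes, -0.19 in SUDHL6 and -0.28 in Farage. The widest gap is in glycolysis and hypoxia, where the medians are -0.26 and 0.93.

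The responses of SUDHL4, the line outside the comparison, were read beside these with no test. Over shared genes they lay nearer to SUDHL6 than to Farage for 50.2%, for 46.3% of the 1513 higher and 59.2% of the 952 lower genes. Among genes with a called difference of at least 1, the shares were 58.9% of the 319 higher and 60.3% of the 239 lower. Of the genes above, PFKFB4, at 1.25, and BNIP3, at 2.26, lay in SUDHL4 on the side of Farage. HK2 and LDHA, at -0.13 and 0.37, lay between the lines. MYC, ADAM19 and EGR1, at -3.78, -3.28 and -1.68, and TP53INP1 and IRF7, at 1.20 and 1.15, lay on the side of SUDHL6. BCOR was at -0.62, nearer to SUDHL6.

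Genes near the threshold of the shared set were EPOR, at 5.003 CPM in Farage DMSO, and FAM58A, at 5.006 CPM in SUDHL6 DMSO, just inside it. Just outside were ZBTB3, at 4.982 CPM in Farage DMSO, and ZNF230, at 4.985 CPM in SUDHL6 DMSO. A further 682 genes reached 5 CPM in SUDHL6 DMSO alone and 866 in Farage DMSO alone, and these are not described here.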

How the data were processed

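Libraries for RNA-seq used a TruSeq RNA kit (per the labels' protocols), and the submitters' processing notes name STAR and the build hg19. Versions, counter, annotation release and strand setting: not given in the sources used here. The authors deposited CPM for 23250 RefSeq gene symbols in each library. Each CPM was a whole number of reads (100% of values within 0.01 reads), so reads were recovered for edgeR and DESeq2. Listed genes held 6289956 to 24097618 reads a library, and 3 reads, the floor of detection, were worth at most 0.362 CPM. This covers counting error only.

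Genes with at least 1 CPM in at least 3 of 12 libraries were tested (12357) with limma 3.58.1 (R 4.3.3) on log2(CPM + 1), with an intensity trend, 4 group means and 8 residual degrees of freedom. A call is a Benjamini-Hochberg adjusted p under 0.05 over all genes tested. Fold changes on this scale understate those of low genes. The fit was run on simulated counts that gave all groups the same dispersion, so that run does not check the unequal spread of the lines. Within groups no pair of libraries was a duplicate: the chi-square of their reads per degree of freedom ran from 1.82 to 50.17. Replicate numbers come from the labels, which do not say what they share. Same-numbered libraries deviated together in SUDHL6 (every r over 0.1) and not in Farage, so blocked values are given for SUDHL6.

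Alternatives were a pseudocount of 0.25, other gene filters, median-of-ratios scaling, replicate blocks, all 18 libraries, a variance per group, a fold of at least 1.5, edgeR 4.0.16 and DESeq2 1.42.0 on the recovered reads, and leaving out libraries. The members and the gene lists were chosen with earlier results of these data known. Of 1086 list genes, 1077 were found and 861 were shared; 24 fell below 5 CPM in Farage DMSO alone, 63 in SUDHL6 DMSO alone and 129 in both. Genes were named by rule: BCL6, EZH2, CBX8 and BCOR; the 12 largest differences in each direction that held when each library was left out; the 8 in each direction with the largest opposite responses; the 6 in each direction most alike; and up to 4 of each list with the smallest p. Other list members are named from their lists after their values were seen. Symbols of uncharacterised loci were skipped in these rankings. Some genes that these rules select are not reported here.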

Additional observations from a re-analysis of the deposited data

Results flagged for a closer look

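The lines differed in their response by a test of the difference itself for 1513 shared genes that were higher in SUDHL6 and 952 that were lower (limma, adjusted p under 0.05), which is the comparison of the report. Of the genes called in opposite directions, the 8 in each direction whose smaller response was largest are listed, and other genes of the report, among them IRF7, ID3 and CRELD2, also moved in opposite directions. Higher in SUDHL6, with a rise there and a fall in Farage, were PRDM15 (difference 2.24), SH3TC1 (2.15), TIFA (1.79), BRD3 (1.75), CTSA (1.68), SNTB1 (1.67), ABTB1 (1.55) and LRCH4 (1.53). Lower in SUDHL6, with a fall there and a rise in Farage, were PFKFB4 (-3.04), HK2 (-2.36), LDHA (-2.16), EGR1 (-1.95), KLF16 (-1.82), MLLT11 (-1.70), PPIF (-1.53) and CD48 (-1.48). Groups of 3 libraries were not searched for single outlying libraries.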

How the results depend on the processing

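The count of called differences depended most on the size of change asked for and on the replicate block. With a fold of at least 1.5 in limma, 240 shared genes had a called difference (134 higher and 106 lower), and 2366 and 2645 had a called response in SUDHL6 and Farage, because the test asks for a larger change. With the replicate number as a block in SUDHL6, an alternative chosen after seeing the data, 3952 differences were called, 2368 higher and 1584 lower, and with the block in both lines 3159, 1900 higher and 1259 lower. The blocked fits keep 6 and 4 residual degrees of freedom, and in SUDHL6 each library correlated best with its own number, as a hint from the data and not from the design. Leaving out 1 library in turn gave 1853 to 3097 calls of the difference (1125 to 2075 higher, 728 to 1225 lower), 5882 to 6302 of the SUDHL6 response and 5799 to 6709 of the Farage response, and 1716 differences held in each of the 12 fits. Of the 168 named genes, 135 had a called difference, and none of these changed sign under any alternative run. Among the genes chosen as alike in both lines, differences near 0 that were not called changed sign: MRM1 (-0.16) was 0.44 with a pseudocount of 0.25, 0.82 by edgeR and 0.79 by DESeq2, and VPREB3 (-0.45) was 0.25, 0.58 and 0.55. RSAD1 (0.02) was -0.01 with median-of-ratios scaling, and RSAD1 and CUX2 (-0.07) were -0.07 and 0.09 without both shallow SUDHL6 libraries. Leaving out 1 library in turn gave -0.38 to 0.15 for TSC22D3, -0.12 to 0.39 for SERTAD1, -0.29 to 0.17 for CUX2, -0.29 to 0.02 for MRM1, -0.13 to 0.17 for RSAD1, -0.37 to 0.20 for ELL3 and -0.34 to 0.28 for TLR10. Of the 135 called, 73 were not called with a fold of at least 1.5, and 4 with no gene filter (UNG, POLD1, NUSAP1 and H1FX). Without both shallow SUDHL6 libraries 2 were not called, and with all 18 libraries 1, SEL1L. With median-of-ratios scaling 2 were not called (POLD1, 0.67, and SESN2, 0.42), and edgeR and DESeq2 kept each of the 135 calls. Calls of UNG, POLD1, NUSAP1, H1FX, NUP62, AEBP2, SESN2 and CBX8 were lost when some 1 library was left out. MRM1 and VPREB3 fell to under 1 CPM in treated Farage libraries, where log2(CPM + 1) understates the fall. The difference is less precise in SUDHL6, whose replicate 3 libraries are the shallowest, and leaving both out gave 3048 calls. The causes of these changes other than the stated fold were not tested.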

Other observations

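Of 26 shared cholesterol genes, 4 had a higher difference and 2 a lower one, a share called (23.1%) below the 28.4% of shared genes. Among the lower ones was LSS, the lanosterol synthase, which fell from 141 to 74.7 CPM in SUDHL6 and rose from 148 to 181 CPM in Farage (difference -1.19, limma adjusted p = 0.000108). FDFT1, the squalene synthase, had a difference of 0.74 in the other direction.

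Of 10 shared plasma cell genes, 3 had a higher and 2 a lower difference (50% called, against 28.4% of shared genes). Of 23 in the unfolded protein list, 4 were higher and 3 lower (30.4%, near the 28.4% of shared genes). HERPUD1, in both lists, is a protein of endoplasmic reticulum degradation. It rose in SUDHL6 from 148, 142 and 113 CPM to 405, 344 and 292 and was at 596, 647 and 635 CPM in Farage DMSO and 581, 596 and 642 when treated (difference 1.41, limma adjusted p = 0.000158). SEC11C, a plasma cell list member and subunit of the signal peptidase, was 42.7 and 44.3 CPM in SUDHL6 and fell from 120 to 50.4 CPM in Farage (difference 1.29, limma adjusted p = 1.76e-05). PRDX4, a peroxidase of the endoplasmic reticulum, had a difference of -1.31. In the list of FOXO targets and mTOR brakes, 4 of 18 shared members were higher and 1, BCL2L11, was lower (27.8%, against 28.4% of shared genes). With the replicate block in SUDHL6, 10 members were higher and 2 lower, against 2368 and 1584 of the 8670 shared genes.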
